A study of Paxillus involutus with 18 samples.

Results

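Of the 12214 isotigs (assembled transcripts) of *Paxillus involutus* on the array, 53 were at least 2-fold higher in mycelium on the hot-water extract of maize compost (MH) than on the mineral medium MMN, while their changes on 3 other media stayed under 0.6 on the log2 scale. These were the hot-water extract of forest litter (FH), the cold-water extract of the same kind of compost (MC) and carboxy methyl cellulose (CMC). The isotigs were chosen by their change, the mean log2 value of the 3 arrays of a medium minus the mean of the 3 MMN arrays of the same slide. A change of at least 1 was required on MH, and a change under 0.6 on each of FH, MC and CMC. All 18 arrays therefore took part in the choice, and the changes below describe the isotigs without testing them. The files pair none of the 53 with a gene name, a function or a sequence, so each is given by its isotig number.

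*Pa. involutus* is an ectomycorrhizal fungus, which lives on the roots of trees, receives sugar from them and in return supplies nutrients such as nitrogen taken up from soil. Fungi of this kind descend from wood and litter decayers, and many have lost a large part of the enzymes that break down plant cell walls. An isotig is one way of joining the reads of a transcript, so a gene can have several isotigs, for example for splice variants, and an isogroup holds the isotigs of 1 gene. On an array the level of an isotig is a summary of the brightness of its probes, which rises when its RNA makes up more of the RNA of the mycelium.

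Each of the 6 groups held 3 arrays of the wild-type strain ATCC 200175, grown axenically on glass beads. Within a group the arrays came from separate cultures according to the labels. MMN replicates 1 to 3 occur on both slides, and whether arrays of the same number came from 1 culture is not stated. The main fit took all 18 arrays as separate. All cultures had 9 days on MMN and 24 h without nitrogen, followed by 7 days on FH, MH, MC, CMC or again MMN. The extracts had been passed through 0.2 µm filters and freed of small compounds by ultrafiltration with a cut-off of 10 kDa, and extracts and CMC were supplemented with glucose. FH, MH and 3 MMN arrays lay on slide 1 and MC, CMC and 3 MMN arrays on slide 2, so FH and MH share their MMN arrays, as do MC and CMC. MC replicate 3 carries a free description that names MH, but its title, source and medium name MC. Once each isotig was centred, this array correlated at 0.83 on average with the other MC arrays and at 0.41 with the MH arrays. Without it the rule gave 58 isotigs, 52 of them among the 53. Array medians ran from 11.45 to 11.47, and the random control read 3.69 to 3.85, all on the log2 scale.

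The 53 were a small share of the isotigs high on MH. In all, 550 isotigs had an MH change of at least 1, and 497 of these reached 0.6 on at least 1 other medium. Of the 497, 265 did so on FH, MC and CMC alike, 100 on MC and CMC, and 78 on MC alone. Only 7 were kept out by FH alone and 8 by CMC alone. The MH changes of the 53 had a median of 1.11 and ran from 1.00 to 1.72, against a median of -0.06 over all isotigs and of 1.28 in the 497. In 25 of the 53 the MH change was under 1.1 and thus close to the limit. The fit called all 53 higher on MH (limma, adjusted p under 0.01 and over 2-fold), beside 4.49% of all isotigs, but the choice used this contrast.

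**Figure D1:**
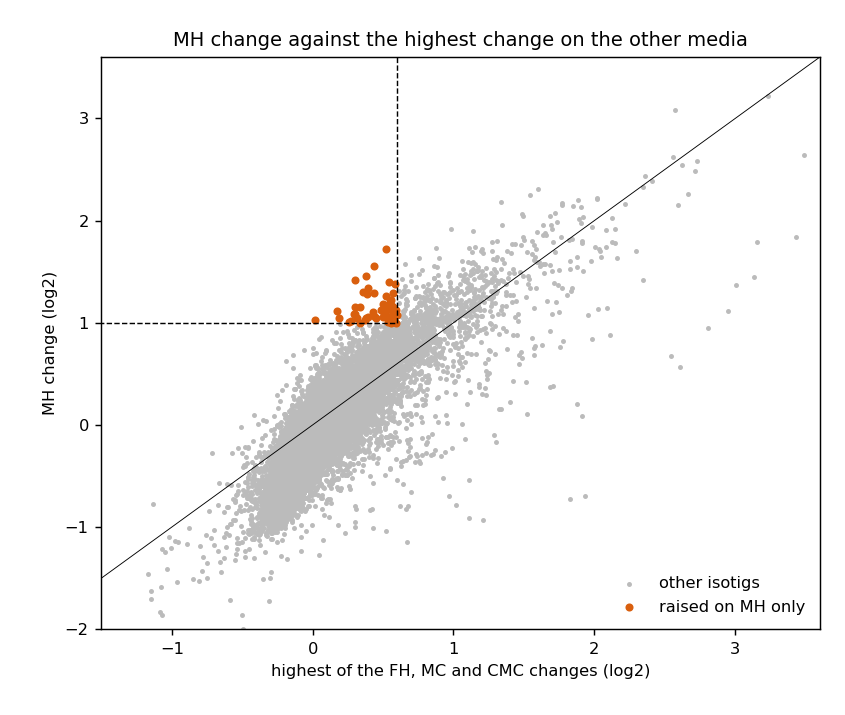
MH change (vertical axis, log2) against the highest of the FH, MC and CMC changes (horizontal axis, log2) for all isotigs, with the 53 in orange, the limits of 1 and 0.6 as dashed lines and equal changes as a solid line. The 53 fill the corner next to the main cloud, and paxillus_4472 with 1.72 lies highest in it.

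The isotigs with the highest MH changes were paxillus_4472, paxillus_4470 and paxillus_4471, and together with paxillus_4469 they carried consecutive numbers. The values of paxillus_4472 were 11.80, 12.04 and 12.22 on the MH arrays and 10.28, 10.20 and 10.41 on the MMN arrays of slide 1. They were 10.90, 10.53 and 10.33 on FH, 10.20, 10.11 and 10.20 on MC and 10.51, 10.74 and 10.63 on CMC, with 10.14, 10.05 and 10.13 on the MMN arrays of slide 2. The lowest MH array thus stood above every other array, while the MC arrays overlapped their MMN arrays, with a change of 0.06. The MH change was 1.72 (standard error 0.12, n = 3 arrays against 3), a 3.30-fold difference, with changes of 0.29 on FH and 0.52 on CMC.

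paxillus_4470 had values of 11.78, 11.98 and 12.12 on MH against 10.43, 10.36 and 10.41 on MMN. Its arrays read 10.91, 10.48 and 10.49 on FH, 10.29, 10.20 and 10.20 on MC and 10.47, 10.82 and 10.64 on CMC. The MH arrays again lay clear of all others, with a change of 1.56 (standard error 0.11). paxillus_4471 read 11.57, 11.86 and 11.93 on MH against 10.31, 10.34 and 10.33 on MMN, a change of 1.46 (standard error 0.10). paxillus_4469 read 11.62, 11.77 and 11.72 on MH against 10.39, 10.39 and 10.42 on MMN, a change of 1.30 (standard error 0.10). The 4 isotigs shared one order of the media, with MH highest, CMC second at changes of 0.35 to 0.52, then FH at 0.11 to 0.30 and MC lowest at -0.02 to 0.07. In each of the 4, FH replicate 1 was the highest FH array, for example at 10.91 against 10.48 and 10.49 in paxillus_4470. The same held in 33 of the 53 isotigs, these 4 included, so it does not set the run apart.

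The 4 isotigs also moved together between arrays of the same medium, which the rule did not use. After each group mean was taken off, the 6 pairs among them correlated over the 18 arrays with a median r of 0.84 (0.72 to 0.90). The median was 0.30 over all 1378 pairs of the 53 and 0.12 over the 11427 pairs of consecutive numbers on the array. These correlations are descriptions over arrays that share cultures and slides. Of the isotigs within 2 numbers of the run, paxillus_4473 had an MH change of -0.63 and paxillus_4467 one of -0.07. paxillus_4474 had the same order of the media at smaller changes, 0.37 on MH, 0.11 on CMC, 0.10 on FH and -0.24 on MC. The files pair no isotig with an isogroup, and probe sequences were not analysed here, so whether the 4 stand for 1 gene or share probe targets cannot be told apart.

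Among the 53, 3 more runs of neighbouring numbers were present, and 43 isotigs were in no run. paxillus_5111 and paxillus_5112 had MH changes of 1.17 and 1.11, and their changes differed by 0.1325 on FH, 0.0605 on MH, 0.0124 on MC and 0.007 on CMC. paxillus_5590 and paxillus_5591 had MH changes of 1.13 and 1.19, with MC next at 0.48 and 0.50. paxillus_4452 and paxillus_4454, which enclose a number outside the 53, had MH changes of 1.11 and 1.29, whereas paxillus_4453 between them had 0.25. The deviations from the group means correlated at 0.83, 0.76 and 0.82 in these 3 pairs. In size the MH changes within the 4 runs differed by 0.06 to 0.42, and the median difference between consecutive numbers over the whole array was 0.37. The neighbours outside the 53 were mostly not high on MH: of 176 isotigs within 2 numbers of one of the 53, 35 (19.9%) had an MH change of at least 0.5, beside 15.5% of all isotigs. Of the 176, 12 had an MH change of at least 1 and were kept out by another medium, such as paxillus_350 with 1.21 on MH and 0.67 on CMC, and paxillus_3438 with 1.28 on MH and 0.84 on MC. Others missed the MH limit, such as paxillus_11526 with 0.93 and paxillus_7712 with 0.82. These 4 neighbours were picked after their values were seen.

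**Figure D2:**
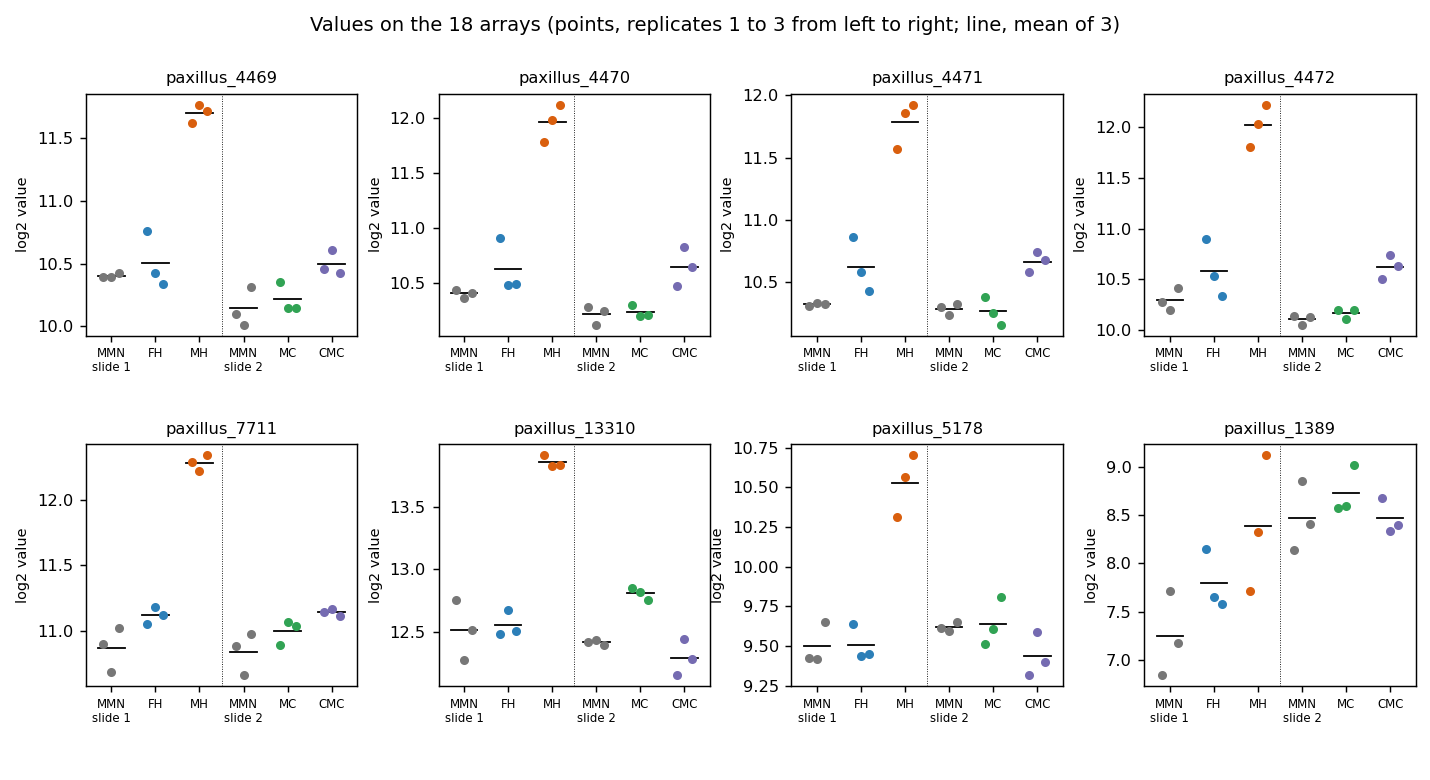
Log2 values of 8 isotigs on the 18 arrays, with points for replicates 1 to 3 of each medium from left to right, a line at the mean of 3 and a dotted line between slides. In 7 panels the 3 MH points lie above the other 15, with paxillus_7711 and paxillus_13310 the tightest (SD 0.06 and 0.05), while in paxillus_1389 they overlap the points of both slides.

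The isotigs that set MH apart most clearly were ranked by the gap between the MH change and the highest change on another medium. The gap had a median of 0.67 in the 53 (0.41 to 1.20). On the whole array 5 isotigs reached a gap of 1, and all 5 were among the 53: paxillus_4472 (1.20), paxillus_4470, paxillus_7711, paxillus_4471 and paxillus_5178. Of the 22 isotigs with a gap of at least 0.8, 14 were among the 53. The gap is made of the changes used by the rule and serves here only to order the isotigs.

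paxillus_7711 had the steadiest of these profiles. It read 12.30, 12.23 and 12.35 on MH against 10.90, 10.68 and 11.02 on MMN, a change of 1.42 (standard error 0.08). Its values were 11.05, 11.18 and 11.12 on FH, 10.89, 11.07 and 11.03 on MC and 11.14, 11.16 and 11.11 on CMC. The 9 arrays of the other media lay between 10.89 and 11.18, and the MH arrays more than 1 above them. It was also 1 of 3 isotigs, with paxillus_9688 and paxillus_13310, that met the rule under every alternative tried.

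paxillus_13310 was among the brightest of the 53. Its values were 13.91, 13.83 and 13.83 on MH against 12.76, 12.28 and 12.51 on MMN, a change of 1.34 (standard error 0.09). On MC it read 12.85, 12.81 and 12.76, and on the MMN arrays of slide 2 it read 12.42, 12.44 and 12.39. On CMC it read 12.15, 12.45 and 12.28. The media thus ranked MH, MC (0.39), FH (0.04) and CMC (-0.12), and the MC arrays did not overlap their MMN arrays, whereas the CMC arrays did.

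In 3 isotigs every other change lay within 0.2 of 0, so that MH alone moved by more than that. paxillus_5178 read 10.31, 10.57 and 10.70 on MH and between 9.31 and 9.81 on the other 15 arrays, with changes of 1.03 on MH, 0.01 on FH, 0.02 on MC and -0.19 on CMC. paxillus_3062 read 12.12, 12.37 and 12.33 on MH and between 11.06 and 11.55 elsewhere, with changes of 1.05 on MH and 0.19 on CMC. The third, paxillus_230, had changes of 0.14 on FH, 0.17 on MC and 0.07 on CMC, but its MMN level differed between slides, as given below. In the first of these isotigs no other medium was above MMN by more than 0.02.

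Such profiles were the exception. In 47 of the 53 the changes on FH, MC and CMC were all above 0, and their medians were 0.31, 0.36 and 0.33, where the medians over all isotigs were -0.06, -0.07 and -0.07. In 25 of the 53 the highest other change reached 0.5, and in 19 all 3 stayed under 0.4. The second-highest medium was CMC in 27 isotigs, MC in 21 and FH in 5. All 3 MH arrays lay above the 3 MMN arrays in 52 of the 53 (32.9% of all isotigs). The same held on FH for 32 isotigs (23% of all), on MC for 40 (26.3%) and on CMC for 44 (25.8%). All 3 arrays lay below MMN in 1 isotig on FH (33% of all), 1 on CMC (38.7%) and none on MC (40.2%). At an adjusted p under 0.01 without a fold limit, limma called 25 of the 53 higher on FH, 37 on MC and 38 on CMC, beside 16.5%, 21% and 19% of all isotigs. None was called lower, beside 16.9%, 28.3% and 21.8% of all, and none was called higher by over 2-fold on FH, MC or CMC, beside 0.966%, 2.81% and 1.66%. The rule bounded these contrasts from above only, and nothing is read from these counts.

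**Figure D3:**
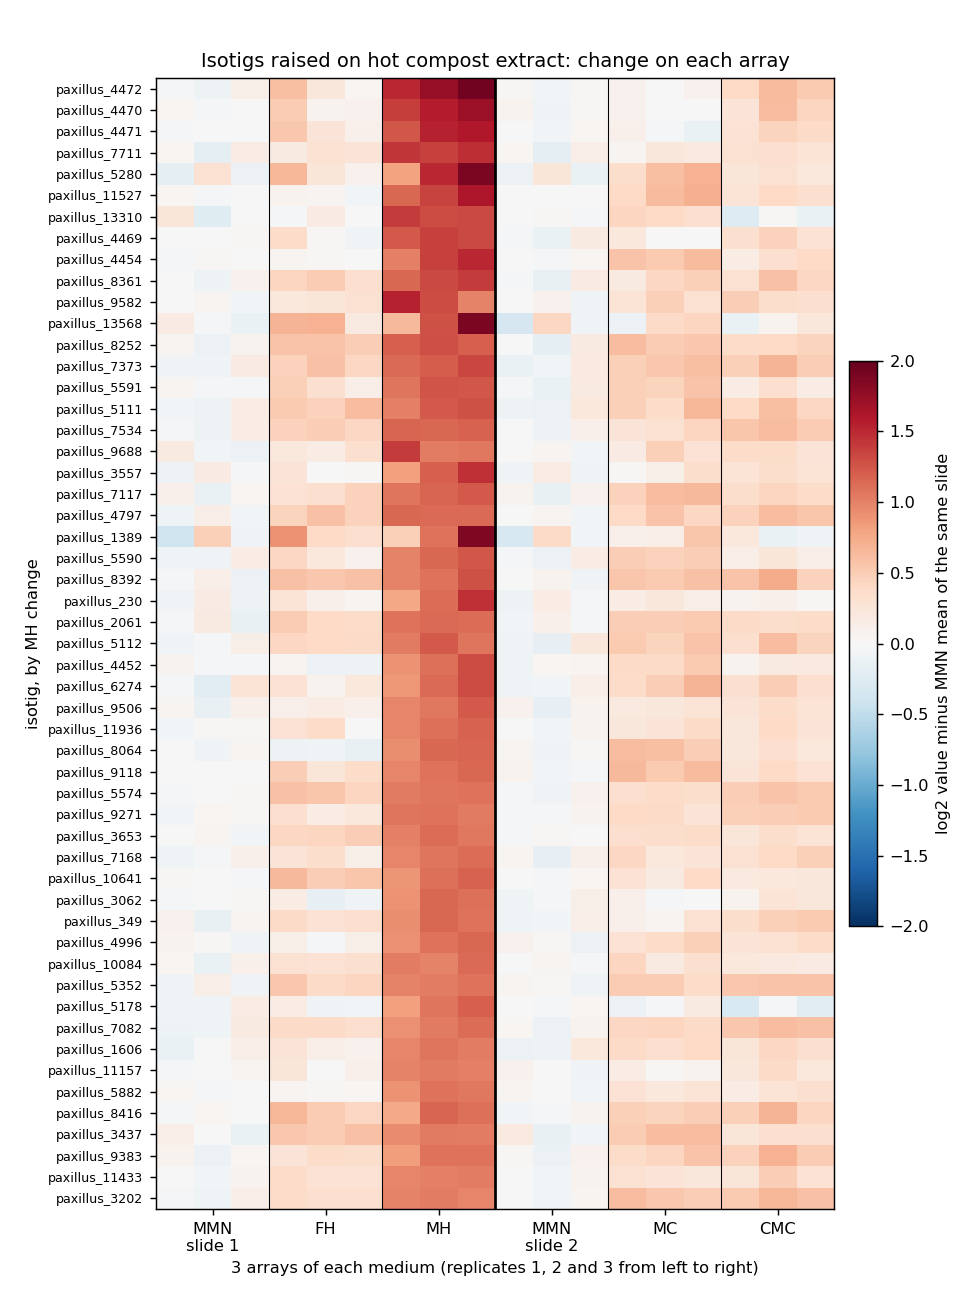
Change from the MMN mean of the same slide (colour, log2) for the 53 isotigs (rows, by MH change) on the 18 arrays (columns, replicates 1 to 3 of each medium). The MH columns are the darkest in almost every row, and pale red on FH, MC and CMC marks the 47 isotigs with changes above 0 on all 3.

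The profiles over the 3 other media fell into several kinds, described here with limits chosen after the values were seen. In 7 isotigs (paxillus_7373, paxillus_5111, paxillus_4797, paxillus_8392, paxillus_5112, paxillus_5352 and paxillus_8416) FH, MC and CMC all reached 0.4. In 4 isotigs FH stayed under 0.1 while MC reached 0.4, so that both compost extracts stood above the litter extract. CMC also gave a higher change than FH in these 4 isotigs. It was 0.33 in paxillus_11527, 0.29 in paxillus_4454, 0.15 in paxillus_4452 and 0.255 in paxillus_8064. Of these, paxillus_11527 read 10.10, 10.30 and 10.57 on MH, 9.46, 9.69 and 9.77 on MC and 9.01, 9.00 and 8.89 on FH, against MMN values of 8.99, 8.91 and 8.95 on slide 1 and 9.06, 9.06 and 9.05 on slide 2. The MH and MC arrays of this isotig overlapped neither each other nor MMN, and FH overlapped MMN. paxillus_4454 had 10.48, 10.84 and 10.98 on MH, 9.98, 9.93 and 10.03 on MC and 9.53, 9.49 and 9.49 on FH, and its partner paxillus_4452 had changes of 1.11 on MH, 0.43 on MC and -0.05 on FH. paxillus_8064 was the isotig with the lowest FH change, -0.11, with FH values of 10.41, 10.42 and 10.36 below its MMN values of 10.53, 10.44 and 10.56, and it read 11.44, 11.66 and 11.68 on MH.

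Another kind, with MC under 0.1 and CMC at least 0.15, held the run from paxillus_4469 to paxillus_4472 together with paxillus_3062 and paxillus_11157. paxillus_11157 had changes of 1.01 on MH, 0.08 on MC and 0.28 on CMC, with MH values of 12.10, 12.14 and 12.12. In these 6 isotigs MH gave the highest change, and MC the lowest in all but paxillus_3062, where FH was lower at -0.03. MH and MC lay on different slides and were each taken against their own MMN arrays, so their difference is one of changes.

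FH reached 0.4 with MC and CMC both under it in 4 isotigs, of which paxillus_13568 and paxillus_1389 had unlike MMN levels on the slides, as given below. The other members of this kind were steadier. paxillus_10641 read 11.44, 11.29 and 11.35 on FH and 11.68, 11.89 and 11.97 on MH against 10.82, 10.80 and 10.77 on MMN, and paxillus_3653 had changes of 0.44 on FH and 1.06 on MH. In both, MMN, FH and MH formed 3 steps without overlap on slide 1. A level between MMN and MH on all other media was seen in paxillus_8361, which read 11.79, 11.96 and 12.03 on MH, 11.07, 11.15 and 10.98 on FH and 10.65, 10.54 and 10.73 on MMN. Its changes were 0.43 on FH, 0.36 on MC and 0.44 on CMC, against 1.29 on MH.

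Replicate arrays were less alike in the 53 than over all isotigs in most groups. The SD within MH had a median of 0.11 in the 53, 0.07 over all isotigs and 0.06 in the 497. The SD of the 53 and of all isotigs was 0.11 and 0.08 on MMN of slide 1, 0.09 and 0.07 on MMN of slide 2 and on FH, 0.08 and 0.06 on CMC, and 0.07 and 0.07 on MC. MH replicate 1 was the lowest MH array in 43 of the 53 (81.1%), beside 38.7% of all isotigs and 60.8% of the 497. The median change of the 53 was 0.99 on replicate 1, 1.14 on replicate 2 and 1.17 on replicate 3, and a change of at least 1 was reached by 24, 52 and 51 isotigs. More than 0.3 below the mean of the other MH arrays lay replicate 1 of 13 isotigs (24.5%, beside 2.33% of all). Against this order, replicate 1 was the highest MH array in 4 isotigs, paxillus_13310, paxillus_9582, paxillus_9688 and paxillus_4797. In paxillus_9582 the MH arrays read 11.82, 11.57 and 11.27, all above 10.69, its highest value on any other medium. In 15 of the 53 the MH arrays had an SD under 0.06. The share of all isotigs under this limit was not counted, and with a median of 0.07 over all isotigs such an SD was not unusual.

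Because the rule used every MH array, the isotigs were chosen again without each of them and read on the array left out. Chosen without replicate 1, 71 isotigs met the rule, all of the 53 among them, and on replicate 1 their median change was 0.95, with 66 of 71 above all MMN arrays of slide 1. Chosen without replicate 2, there were 48 isotigs with a median of 1.14 on the array left out, and without replicate 3 there were 41 with a median of 1.18. On those arrays all 48 and all 41 were above the MMN arrays. The corresponding shares of all isotigs above MMN were 36.5%, 38.9% and 40.5%. On the MH arrays used for the choice the medians were 1.14, 1.12 and 1.11 in the same order. The array left out thus read lower than the arrays used for replicate 1, where 24 of 71 isotigs reached 1, and slightly higher for replicates 2 and 3. The MMN arrays were shared by the choice and the reading.

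**Figure D4:**
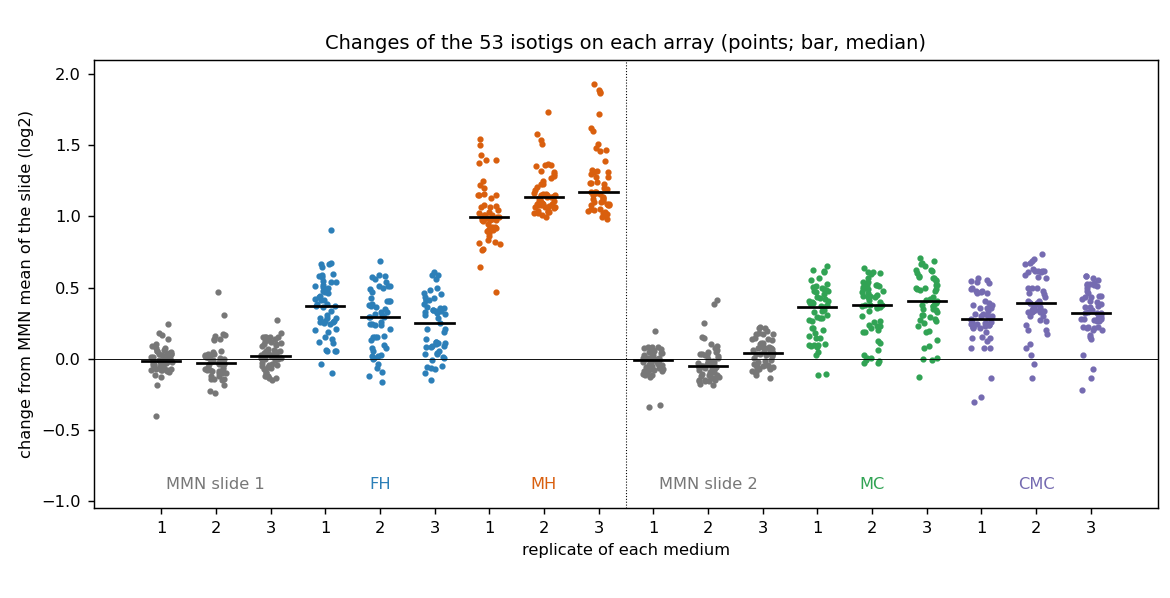
Change from the MMN mean of the same slide (log2) of the 53 isotigs on each array, with a bar at the median. The medians are 0.99, 1.14 and 1.17 on the 3 MH arrays, and between 0.25 and 0.41 on the 9 arrays of FH, MC and CMC, where no isotig reaches 1.

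MH and FH were measured against the MMN arrays of slide 1, and MC and CMC against those of slide 2, so the MMN level of both slides was compared. MMN was higher on slide 2 in 33 of the 53 (62.3%, beside 46.3% of all isotigs), with a median difference of 0.06 against -0.02 over all. In 7 isotigs (13.2%, beside 4.49% of all and 3.02% of the 497) it was higher by more than 0.3. These were paxillus_1389 (1.22), paxillus_13568 (0.98), paxillus_5280 (0.73), paxillus_230 (0.49), paxillus_2061 (0.38), paxillus_8252 (0.36) and paxillus_3557 (0.32). MMN replicates 1 to 3 occur on either slide, and those of the same number deviated together, with correlations of 0.26, 0.45 and 0.49, so they were also compared within pairs. In all 7 isotigs the array of slide 2 was higher in 3 of 3 pairs, by 1.29, 1.13 and 1.23 in paxillus_1389, 0.48, 1.42 and 1.04 in paxillus_13568 and 0.46, 0.47 and 0.56 in paxillus_230. The 7 were picked by the means of these same arrays, so the pairs are no separate check and show only how even the differences were. MMN was higher on slide 2 in all 3 pairs in 24 of the 53 (45.3%), beside 27.9% of all isotigs. A higher MMN level on slide 2 lowers the MC and CMC changes, which brings an isotig closer to the rule. A lower one on slide 1 lifts the MH change, but it lifts the FH change equally, which the rule holds under 0.6.

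For paxillus_1389 the MH arrays read 7.72, 8.33 and 9.11, the MMN arrays 6.84, 7.72 and 7.18 on slide 1 and 8.14, 8.85 and 8.40 on slide 2, and the MC arrays 8.57, 8.59 and 9.02. It was the only isotig of the 53 whose MH arrays overlapped the MMN arrays of slide 1, and its MH mean fell by 0.08 below the MMN mean of slide 2. With all 6 MMN arrays as the baseline its MH change was 0.53, and that of paxillus_13568 was 0.77. paxillus_13568, the dimmest of the 53, read 5.74, 6.37 and 6.98 on MH, 5.27, 5.07 and 4.96 on MMN of slide 1 and 5.74, 6.49 and 6.01 on MMN of slide 2. Its MH arrays overlapped those of MC and CMC, and also FH on its own slide, which read 5.78, 5.79 and 5.29. FH overlapped MH in paxillus_1389 too, at 8.15, 7.65 and 7.58, whereas in the other 51 isotigs all MH arrays lay above all FH arrays (29.5% of all isotigs). paxillus_5280 read 9.36, 10.06 and 10.44 on MH, 8.37, 8.86 and 8.44 on MMN of slide 1, 9.17, 9.54 and 9.15 on MMN of slide 2 and 9.63, 9.89 and 9.97 on MC. In these 3 isotigs the lowest MH array was below arrays of slide 2, and of the other 50 only paxillus_8392 had such an overlap. In 49 of the 53 all MH arrays lay above all other 15 arrays, which 15.4% of all isotigs did.

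The same isotigs were the least steady on MH. An SD above 0.3 within MH was found in 5 of the 53 (9.43%, beside 1.63% of all isotigs), and all 5 (paxillus_1389, paxillus_13568, paxillus_5280, paxillus_230 and paxillus_3557) were among the 7 with a difference in MMN above 0.3. In each, MH replicate 1 was the lowest and replicate 3 the highest. The part of array, culture or slide in this order was not tested. Against the MMN mean of slide 2 in place of slide 1, the MH level of the 53 was higher by a median of 1.02 (-0.08 to 1.92), by at least 1 in 31 and by under 0.6 in 2, which were paxillus_1389 and paxillus_13568.

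**Figure D5:**
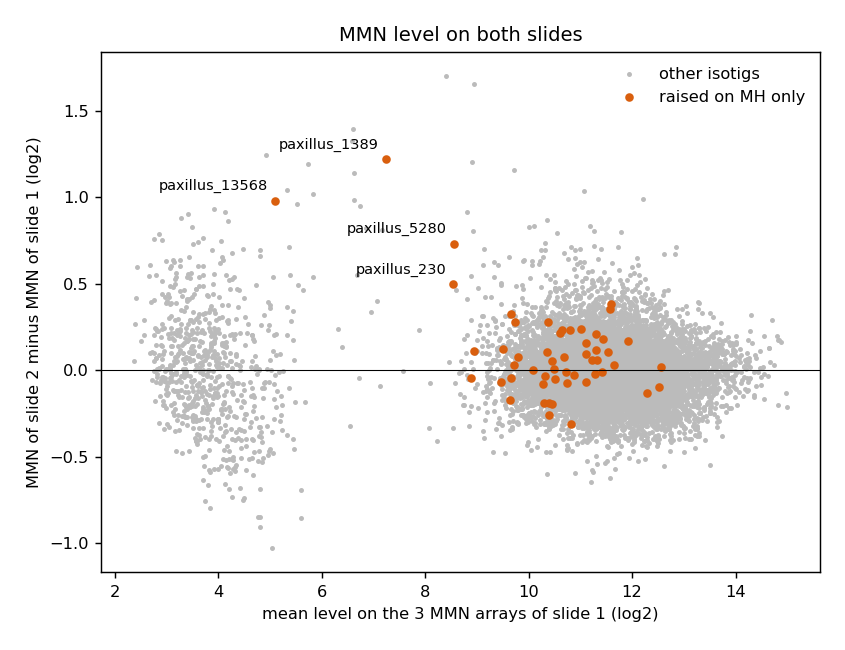
Mean MMN level on slide 2 minus that on slide 1 (vertical axis, log2) against the mean MMN level on slide 1 (horizontal axis, log2), with the 53 in orange and other isotigs in grey. Most of the 53 lie near 0 at levels of 9 to 12, and the 4 named ones are raised by 0.49 to 1.22 on slide 2.

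The 53 had low levels on MMN. Their median on the MMN arrays of slide 1 was 10.60, against 11.47 over all isotigs and 11.19 in the 497, and 45 of the 53 were below the median of all isotigs and 33 below the lower quartile of 10.84. Levels under 9 were found in 6 (11.3%, beside 6.30% of all). On MH the median of the 53 was 11.79, and the median of their percentile among all isotigs went from 18.9 on MMN to 63.2 on MH. The rule asks for a rise from these MMN arrays to MH, so a rise in rank was part of the choice. Low values on these MMN arrays also favour an isotig in the rule. The level of an isotig also depends on its probes, so ranks across isotigs are approximate. paxillus_3437 was the brightest on MMN, with 12.71, 12.57 and 12.43, and read 13.51, 13.61 and 13.60 on MH. All 53 had 10 probes, as did 12203 of the 12214 isotigs, and all but 4 lay at least 5 above the random control probes on MMN.

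The limits of the rule cut through a dense range. Just inside the MH limit were paxillus_9383, paxillus_11433 and paxillus_3202, whose changes all rounded to 1.00, and just outside were paxillus_6976 (0.9951), paxillus_5090 (0.9948) and paxillus_4514 (0.9947). Just inside the other limit were paxillus_9118 (0.598 on MC), paxillus_8392 and paxillus_3202 (both 0.591 on CMC), and just outside were paxillus_4746 (0.610 on MC), paxillus_11103 (0.612 on FH) and paxillus_6164 (0.615 on MC). paxillus_11103 had an MH change of 1.31, higher than that of all but 7 of the 53. Differences of this size across a limit are far smaller than the standard errors of the changes, which had a median of 0.08 in the 53.

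None of the 53 was among 29 isotigs for which an enzyme name from the study's annotation was at hand. These names are only those known here, from isotigs reported as higher on these arrays, so their absence says nothing on what the 53 encode. Of the 29, 19 had an MH change of at least 1, of which 15 reached 0.6 on 2 or 3 other media and 4 on 1. The catechol 1,2-dioxygenases paxillus_6174 and paxillus_6175, a family that opens the ring of catechols, had MH changes of 1.17 and 1.12 and were kept out by an MC change of 0.77 each. Tyrosinase paxillus_984, of a family that oxidises phenols, had 1.03 on MH and 0.65 on MC. paxillus_6210, named GH61 after a family that acts on cellulose by oxidation, had 1.21 on MH, 0.80 on CMC and 0.21 on MC.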

How the data were processed

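The authors sequenced the transcriptomes on FH, MH, MC and MMN, but not on CMC, and designed NimbleGen arrays from the assembly. The values were deposited as RMA expression values, normalized between arrays and summarised over the probes of each isotig, and were read here as log2 values. The log base is not stated, but natural logarithms would put 63.5% to 66.3% of isotigs on an array above a 16-bit scanner's limit. The deposited number of probes per isotig was used as given, and the version of RMA is not given in the sources used here. Per-array values and the series table differed by 0 at most. Samples were grouped by their titles. Replicate numbers pair the MMN arrays of both slides by the correlation of their deviations (0.26, 0.45 and 0.49), which the labels do not state. Media and MMN were not taken as paired in the main fit, although each MH array correlated best with the MMN array of its number (0.19, 0.03 and 0.08). Changes were computed in Python 3.11.15, and fits with limma 3.58.1 in R 4.3.3 (lmFit and eBayes, 6 group means, 18 arrays, 12 residual and 5.35 prior degrees of freedom), with Benjamini-Hochberg adjustment over 12214 isotigs and the thresholds of the study, 0.01 and 2-fold. The number of arrays limits the precision. On simulated data for MH against MMN over 12214 isotigs, 96% of isotigs changed by 1.1 and 100% of those changed by 1.5 were called.

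The rule, the isotigs and the lists were chosen with earlier results of these data known. Named isotigs are the 10 with the highest MH change and the 10 with the highest gap, those nearest each limit, the brightest and dimmest, those of up to 3 runs, those lowest on another medium, and named enzymes kept out by 1 medium. The others were chosen after their values were seen. Alternatives were other baselines, scalings, limits, fits and leaving out each array.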

Additional observations from a re-analysis of the deposited data

How the results depend on the processing

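The count of 53 depended on the limits. It was 28 with the other changes under 0.5 and 86 under 0.7, 102 with MH at 0.9 and 28 at 1.1, 110 with values read as natural logarithms (19 of the 53 among them) and 30 without the 25% of isotigs dimmest on average. The last of these settings also left 30 called higher on MH, beside 477 of all 9160 isotigs kept. All 6 MMN arrays as the baseline gave 48 isotigs, 32 of them shared, centring on array medians 59 (53 shared), a repeated quantile normalization 49 (40 shared) and arithmetic means 54 (52 shared). Leaving out each array in turn gave 41 to 71 isotigs by the rule, 40 to 53 called on MH, 20 to 28 on FH, 31 to 39 on MC and 26 to 41 on CMC. Of all 12214 isotigs, the same fits called 523 to 604 higher on MH by over 2-fold. Without a fold limit they called 1582 to 2034 higher on FH, 2196 to 2608 on MC and 1920 to 2360 on CMC, so the counts moved over the whole array as well. Met without any single array was the rule by 23 isotigs, and by 16 also under the scalings, arithmetic means and 6 MMN arrays, among them paxillus_4469 to paxillus_4472. Media and MMN arrays share only a replicate number. A fit blocked by that number called 53 on MH, 24 on FH, 37 on MC and 40 on CMC, beside 549, 2018, 2579 and 2340 of all isotigs called higher. Of the 4 media only MH had each array correlate best with the MMN array that has the same number (0.19, 0.03 and 0.08), as the MMN arrays of both slides did with each other. The median difference in MMN between slides was 0.06, and 0.07 under both scalings. Over the 53 and 10 further named isotigs, 673 of 693 MH changes under alternatives moved by less than 1 SD and 20 by more, none to the other sign. This tally holds values that could hardly differ, since the replicate block leaves a change as it is and centring on medians shifts all isotigs alike. Changes near 1 or above could also hardly change sign. Of the 20, 15 came with all 6 MMN arrays as the baseline, where paxillus_1389 moved from 1.14 to 0.53. Signals near the random control, as for paxillus_13568, limit what a change can show.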
